A study of Mus musculus with 9 samples.

Results

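The constitutive proteasome subunit genes described here are the 31 genes that encode the standard core particle and its regulatory particle, taken by gene symbol from 9697 genes tested in mouse quadriceps muscle. The inducible subunits of the immunoproteasome were left out of the set, and each gene was read from its brightest probe set, by the mean of the 9 arrays. The set holds 14 genes of the 20S core (7 alpha and 7 beta subunits) and 17 genes of the 19S regulator (6 ATPase and 11 non-ATPase subunits). All 31 genes passed the filter on dim probe sets, a log2 value above 5 in at least 3 arrays, and in fact did so in all 9 arrays.

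The proteasome degrades proteins that carry ubiquitin chains. The alpha rings gate the entry to the barrel-shaped core, the beta rings hold the proteolytic sites, the ATPase ring of the regulator unfolds substrates and feeds them in, and the non-ATPase subunits bind ubiquitin chains, remove them and hold the parts together. In skeletal muscle the ubiquitin-proteasome system is known as a main route of myofibrillar protein breakdown during atrophy, and subunit genes are known to be transcribed in a coordinated way.

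The 9 samples were quadriceps femoris muscle, 100 mg each, of female C57Bl/6 HT transgenic mice, in 3 groups of 3 samples, and all groups carried the same strain label. In early mice doxycycline was stopped at 21 days of age, and muscle was taken at 35 days, so the transgene had been on for 2 weeks. In late mice doxycycline was stopped at 35 days, and muscle was taken at 50 days of age by the sample labels (49 to 50 days in the protocol text). Control mice never came off doxycycline, and their muscle was taken at 35 days. The protocol text calls the controls single transgenic littermates whereas their strain label is that of the other groups, so their genotype is not settled here. The labels do not name the promoter that drives the transgene. The late mice were older than both other groups, so in every comparison with the late group the time of induction and age cannot be told apart. The labels do not say outright that each sample is a separate animal, so the p-values reflect only how far these samples spread, which may be partly technical.

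The label of the groups was checked with H2-K1, the mouse gene of the class I molecule that the transgene of this model encodes. Its log2 value was 10.52 ± 0.34 in controls, 14.66 ± 0.03 in early and 13.87 ± 0.66 in late samples (SD, n = 3 each). That is 17.7-fold higher in early (limma, Benjamini-Hochberg adjusted p = 0.00115) and 10.2-fold higher in late samples than in controls (limma, adjusted p = 0.00446). Among markers of muscle fibres, all 10 listed genes were measured, with control means between 13.5 and 15.9. In the early replicate 3 sample, H2-K1 was 14.69, as high as in the other early samples, although most proteasome genes there lay near the controls. Transgene and endogenous transcripts of H2-K1 were not told apart.

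The 4 genes with the smallest p-values in the comparison of early with late samples were Psmd11, Psmd13, Psmb5 and Psmd8. Psmd11 encodes a lid subunit that bridges regulator and core, Psmd13 and Psmd8 encode further lid subunits, and Psmb5 encodes the subunit with the chymotrypsin-like site. Their promoter windows are printed for that rank alone, and of the 4 genes Psmd11 passed the test. Each window runs from 250 bases before to 50 bases after the annotated start, 5′ to 3′ on the gene's strand, from RefSeq on GRCm38.p6: chr11:80428365-80428664 on the plus strand for Psmd11, chr7:140882144-140882443 on the plus strand for Psmd13, chr14:54617946-54618245 on the minus strand for Psmb5 and chr7:29180624-29180923 on the minus strand for Psmd8. Capitals mark matches to 3 searched motifs on either strand: TGACNNNGC, the core of the antioxidant response element that NFE2L1 and NFE2L2 bind, CCAAT, the box bound by NF-Y, and CGGAAG, the core bound by ETS family factors.
Psmd11: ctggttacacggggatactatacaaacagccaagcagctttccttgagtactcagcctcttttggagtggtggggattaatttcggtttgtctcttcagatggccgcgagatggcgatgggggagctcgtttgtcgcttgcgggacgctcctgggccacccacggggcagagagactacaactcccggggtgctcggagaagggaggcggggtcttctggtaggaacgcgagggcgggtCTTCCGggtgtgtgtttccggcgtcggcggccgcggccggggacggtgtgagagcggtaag
Psmd13: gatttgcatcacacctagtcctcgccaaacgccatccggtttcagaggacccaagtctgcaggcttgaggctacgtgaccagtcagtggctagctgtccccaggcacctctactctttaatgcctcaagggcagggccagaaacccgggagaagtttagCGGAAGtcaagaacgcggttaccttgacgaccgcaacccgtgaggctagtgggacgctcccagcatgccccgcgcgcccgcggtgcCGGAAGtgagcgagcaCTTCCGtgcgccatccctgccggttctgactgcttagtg
Psmb5: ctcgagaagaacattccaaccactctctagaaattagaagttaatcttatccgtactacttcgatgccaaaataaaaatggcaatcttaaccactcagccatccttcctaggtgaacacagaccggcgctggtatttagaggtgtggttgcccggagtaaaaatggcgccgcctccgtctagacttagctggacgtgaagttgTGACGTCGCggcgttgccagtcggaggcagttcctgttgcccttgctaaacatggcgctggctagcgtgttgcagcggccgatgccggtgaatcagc
Psmd8: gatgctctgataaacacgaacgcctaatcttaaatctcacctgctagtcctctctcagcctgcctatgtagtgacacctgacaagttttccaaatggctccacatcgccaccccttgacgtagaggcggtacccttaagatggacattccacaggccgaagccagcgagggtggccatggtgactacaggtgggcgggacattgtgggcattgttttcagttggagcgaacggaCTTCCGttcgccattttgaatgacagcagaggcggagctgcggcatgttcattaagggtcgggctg

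The only match in the Psmd11 window was CGGAAG on the minus strand, with its first base at position -11 from the start, and Psmd8 likewise held it on the minus strand at -16. Psmd13 held CGGAAG 3 times, on the plus strand at -91 and -5 and on the minus strand at 12. Psmb5 held TGACNNNGC on the plus strand at -47 and neither of the other motifs. The table held windows for 25 of the 31 genes, 27 windows in all. Psmb1, Psmb2, Psmb7, Psmc3, Psmd3 and Psmd7 had no entry. Of the 27 windows, 18 held CGGAAG (66.7%), against 30.9% of 10214 windows of the genes tested and 16.9% of 32851 windows in the table. CCAAT was in 10 of 27 (37%), against 37.2% of the windows of the genes tested and 37.4% of all windows. TGACNNNGC was in 4 of 27 (14.8%), against 14.5% and 12.4%. These are counts of letters in a window and show no binding.

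The subunit genes were bright, and their spread within groups differed from gene to gene. Over the 31 genes and 9 arrays the log2 values lay between 9.10 and 14.20. The median within-group SD was 0.22, against 0.26 over all genes tested, and it ran from 0.06 to 0.54 over the 31 genes. Probe brightness depends on the probe, so levels are compared only between samples. In whole tissue, fewer cells of a type and less RNA per cell cannot be told apart.

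**Figure D1:**
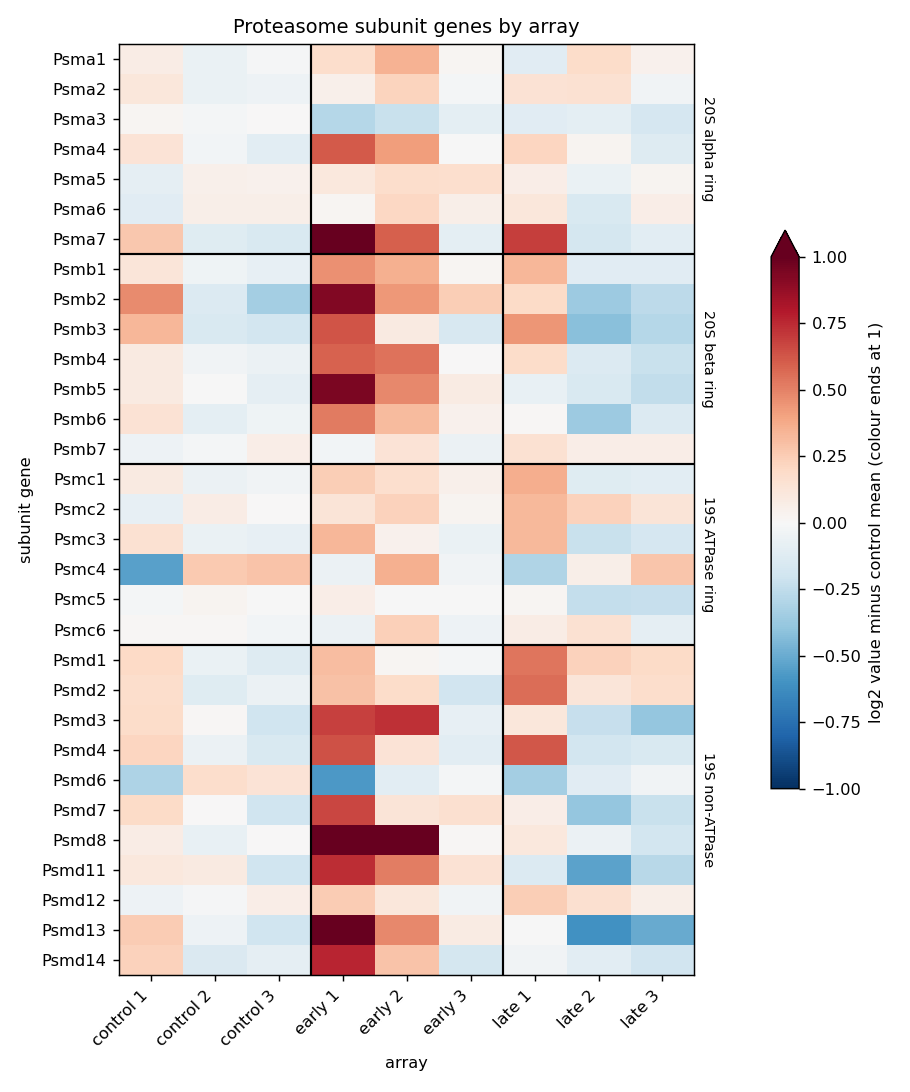
Colour map of the 31 subunit genes (rows, by subcomplex) in the 9 arrays (columns), as the log2 value minus the mean of the 3 controls. Colour ends at 1, which Psma7, Psmd8 and Psmd13 pass in early samples. Early replicates 1 and 2 are mostly red, early replicate 3 is near white, and Psma3 and Psmd6 run the other way.

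In early replicates 1 and 2 the subunit genes as a group sat slightly above the controls, early replicate 3 did not, and no single gene passed the test. Of the 31 genes, 29 had a positive difference of the early mean from the control mean (93.5%), whereas 45.9% of all genes tested did. The 31 genes varied together within groups (median Pearson r 0.48), so their signs are not 31 separate observations. The median difference was 0.18 on the log2 scale, against -0.03 over all genes, and the range ran from -0.23 for Psmd6 to 1.08 for Psmd8. With limma and Benjamini-Hochberg adjustment over 9697 genes, 0 of 31 passed at an adjusted p of 0.05, where 1.19% of all genes did (0.928% as higher and 0.258% as lower), and the adjusted p-values ran from 0.199 to 0.954. At an unadjusted p under 0.05, 3 genes were higher (8.64% of all genes) and 0 lower (9.89% of all genes). By the probe sets used, the early and control samples did not overlap for Psma5 and Psmd11, both higher (9.63% of all genes), and for Psma3, lower (13.9% of all genes). By the other passing probe sets of these genes they overlapped.

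Early replicate 3 stood apart from the other early samples. The median over the 31 genes of the value minus the control mean was 0.33 in early replicate 1, 0.23 in early replicate 2 and -0.01 in early replicate 3. Of the 31 genes, 24, 22 and 2 lay above all 3 controls in these samples, where 37.3%, 34.3% and 20.9% of all genes did. Without early replicate 3, 5 of 31 genes (16.1%) passed as higher: Psmb4, Psmb5, Psmd3, Psmd8 and Psmd11. In that fit 18.1% of all genes passed, and 9.96% of all genes passed as higher. In no other fit that left out 1 sample did any subunit gene pass in this comparison, where 0.0619% to 1.14% of all genes did.

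Among the 7 alpha subunits, which form the outer rings of the core, 6 had positive early differences and 0 passed the test, with a median of 0.15. Psma7 had the highest of them at 0.51 ± 0.32 (SE), with early values of 12.76, 12.32 and 11.63 and control values of 12.00, 11.61 and 11.57. Early replicate 3 lay among the controls. Psma3 was the exception in sign, at -0.20 ± 0.12 (limma, adjusted p = 0.364). Its values were 14.17, 14.13 and 14.15 in controls, 13.87, 13.93 and 14.05 in early and 14.04, 14.05 and 13.99 in late samples. All 6 samples off doxycycline lay below the 3 controls, by little, and the second, dimmer probe set of Psma3 gave 0.05 for early minus control. Psma5 had all early samples just above the controls, at 12.43, 12.50 and 12.49 in early against 12.23, 12.37 and 12.36 in control samples. Psma3, Psma5 and Psma7 were singled out after their values were seen.

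The 7 beta subunits form the inner rings, and 7 of 7 had positive early differences, with a median of 0.29 and 0 past the test. Of the 3 catalytic subunits, Psmb5 read 12.58, 12.49 and 12.41 in controls, 13.43, 12.98 and 12.58 in early and 12.42, 12.34 and 12.24 in late samples. Early replicates 1 and 2 were above all controls, early replicate 3 was level with the highest control, and 2 of 3 late samples were below all controls. The early minus control difference was 0.50 ± 0.20 (limma, adjusted p = 0.242). Psmb6, which carries the caspase-like site, read 13.12, 12.89 and 12.94 in controls, 13.50, 13.30 and 13.02 in early and 12.99, 12.62 and 12.85 in late samples. Its early and control values overlapped, with a difference of 0.29 ± 0.17 (limma, adjusted p = 0.370). Psmb7, which carries the trypsin-like site, read 13.05, 13.08 and 13.17 in controls, 13.07, 13.23 and 13.04 in early and 13.25, 13.17 and 13.17 in late samples. The 3 groups overlapped, and its early difference of 0.02 ± 0.12 was the nearest to zero of the 31 genes. The non-catalytic Psmb2 and Psmb4 had early differences of 0.53 ± 0.27 and 0.38 ± 0.19.

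By the probe sets used, the 6 ATPase genes moved least as a subgroup. All 6 had positive early differences, between 0.02 and 0.15 with a median of 0.09, and 0 passed the test. Their other passing probe sets gave early differences outside this range, of -0.61 and -0.27 for Psmc6, 0.36 for Psmc4 and 0.25 for Psmc2. Psmc4 varied most, between 12.59 and 13.41 within the controls alone.

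The 11 non-ATPase genes were the most uneven subgroup, with 10 positive early differences, a median of 0.29 and a range from -0.23 to 1.08. Psmd8 read 12.00, 11.85 and 11.93 in controls, 13.44, 13.63 and 11.94 in early and 12.03, 11.87 and 11.74 in late samples. Early replicates 1 and 2 stood far above every other sample, and early replicate 3 was level with the controls. The mean was 2.11-fold higher in early than in control samples, a log2 difference of 1.08 ± 0.38 (limma, adjusted p = 0.199). Psmd8 has a single passing probe set, so no second reading exists on this array.

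Psmd11 read 12.31, 12.29 and 12.01 in controls, 12.94, 12.72 and 12.35 in early and 12.07, 11.67 and 11.92 in late samples. By this probe set all early samples lay above all controls and all late samples, and the late samples overlapped the controls. Early minus control was 0.46 ± 0.19 (limma, adjusted p = 0.243). Psmd13 read 9.96, 9.65 and 9.50 in controls, 10.75, 10.18 and 9.79 in early and 9.70, 9.10 and 9.20 in late samples. The early samples overlapped the controls and not the late samples, with early minus control at 0.53 ± 0.27 (limma, adjusted p = 0.309). Psmd6, a lid subunit, was the exception in sign here, at 13.65, 14.14 and 14.10 in control and 13.38, 13.85 and 13.94 in early samples, which overlap. Its second probe set gave 0.01.

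**Figure D2:**
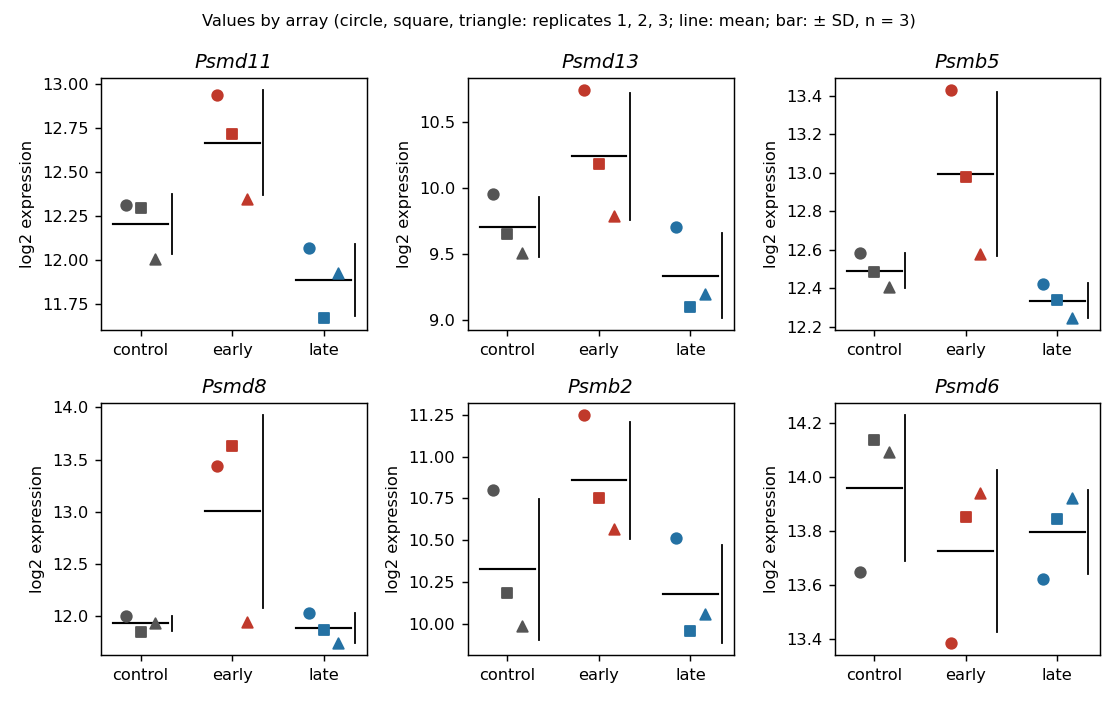
Log2 values by sample for 6 subunit genes in the 3 groups, with the mean as a line and the SD as a bar (n = 3); each panel has its own y axis. The 3 early samples of Psmd11 lie above the other 6 samples, and Psmd6 runs in the opposite order of replicates.

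In late muscle the mean differences of the subunit genes were centred on zero, while the single late samples lay on different sides of the controls. Of the 31 genes, 16 had a positive and 15 a negative difference, so 51.6% were positive against 51.2% of all genes, and the median difference was 0.01 in both. The range was -0.37 to 0.32. In late replicates 1, 2 and 3, 18, 6 and 2 genes lay above all 3 controls, where 37.6%, 34.7% and 33.5% of all genes did. Below all 3 controls lay 3, 17 and 18 genes, where 3564, 3231 and 2999 of 9697 genes did. With limma 0 of 31 passed, where 0.206% of all genes did (0.0928% as higher and 0.113% as lower), and at an unadjusted p under 0.05 the count was also 0 in both directions, where 8.82% of all genes were higher and 8.44% lower. This comparison also sets 50 days of age against 35.

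The 4 smallest p-values in late muscle belonged to Psmd1, Psmc2, Psmd11 and Psmd2. Psmd1 and Psmd2 encode the large scaffold subunits at the base of the regulator. Psmd1 read 12.06, 11.79 and 11.73 in controls, 12.17, 11.88 and 11.84 in early and 12.39, 12.09 and 12.05 in late samples. Psmd2 read 12.03, 11.74 and 11.80 in controls, 12.15, 12.04 and 11.67 in early and 12.42, 11.98 and 12.03 in late samples. In both genes the late samples overlapped the controls, with late minus control at 0.32 ± 0.16 for Psmd1 (limma, adjusted p = 0.347) and 0.29 ± 0.18 for Psmd2 (limma, adjusted p = 0.451). Psmc2, an ATPase, read 13.80, 13.95 and 13.88 in controls, 14.01, 14.11 and 13.90 in early and 14.20, 14.11 and 14.01 in late samples. Its late samples lay above all controls, which 16% of all genes do, at 0.23 ± 0.13 (limma, adjusted p = 0.381). Psma3 was the only subunit gene whose late samples all lay below the controls, which 14.9% of all genes do. Psmd11 lay at -0.32 ± 0.19 in late against control samples (limma, adjusted p = 0.416).

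**Figure D3:**
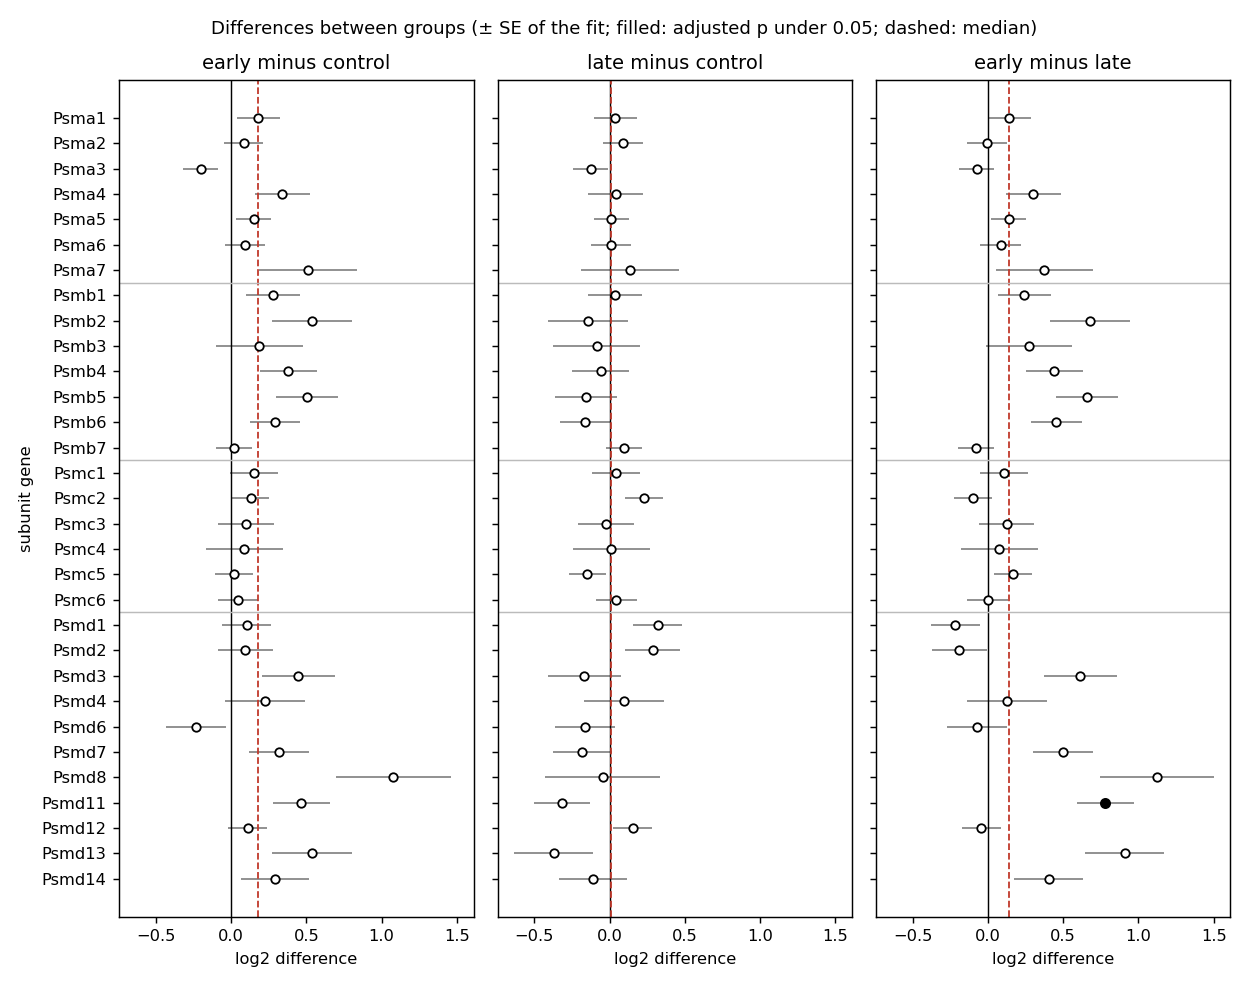
Log2 differences between groups for the 31 subunit genes (points, with the SE of the fit as bars), in 3 panels, ordered by subcomplex; the dashed line is the median over the 31 genes and a filled point has an adjusted p under 0.05. The medians are 0.18, 0.01 and 0.14, and the filled point is Psmd11 in early minus late.

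Set directly against each other, early samples were higher than late ones for Psmd11, the only subunit gene past the test. Psmd11 was 1.72-fold higher in early samples, a log2 difference of 0.78 ± 0.19 (limma, adjusted p = 0.0370), with all 3 early samples above all 3 late samples. It was 1 of 31 genes called, where 11.5% of all genes were called, 5.31% as higher and 6.23% as lower. At an unadjusted p under 0.05, 9 subunit genes were higher and 0 lower, where 15.8% and 18.4% of all genes were. Of the 31 genes, 22 had a positive difference (71.0%, against 47% of all genes), with a median of 0.14 against -0.03 and a range from -0.22 to 1.12.

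The early and late samples did not overlap for 7 of the 31 genes, all higher in early samples, where 13.7% of all genes were apart in that direction and 18.3% in the other. These were Psma5, Psmb2, Psmb5, Psmb6, Psmd7, Psmd11 and Psmd13. By other passing probe sets, early and late samples overlapped for Psma5, Psmd7 and a probe set of Psmd11. They did not overlap for Psmd13 and the remaining probe sets of Psmd11. Psmd13 was 1.88-fold higher in early samples (limma, adjusted p = 0.0573) and Psmb5 was 1.58-fold higher (limma, adjusted p = 0.0668), both short of the threshold. Psmd8, at 2.18-fold (limma, adjusted p = 0.0821), and Psmb6, at a log2 difference of 0.45 ± 0.17 (limma, adjusted p = 0.0991), fell short too. Psmd7, which encodes the partner subunit of the deubiquitinase Psmd14, differed by 0.50. Within same-numbered pairs, the early sample lay above the late one in all 3 pairs for 18 of the 31 genes (58.1%, against 23.1% of all genes), Psmb1, Psmb3, Psmb4, Psmd3 and Psmd8 among them, and below it in all 3 for Psmc2 and Psmd1 (6.45%, against 30.9% of all genes). The pairing was chosen from these same data. Paired samples deviated together more over the subunit genes (r 0.74, 0.48 and 0.49) than over all genes (r 0.17, 0.20 and 0.16). These pair counts are therefore a description and no support for a difference. By subgroup the medians of early minus late were 0.44 for the beta, 0.40 for the non-ATPase, 0.14 for the alpha and 0.09 for the ATPase genes.

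The call of Psmd11 rests on the sample set. Without early replicate 3, 8 of 31 genes (25.8%) were called higher than in late samples, namely Psmb4, Psmb5, Psmb6, Psmd3, Psmd8, Psmd11, Psmd13 and Psmd14, while 30.5% of all genes were called, and 15.9% of all genes as higher. When any 1 of the other 8 samples was left out, 0 of 31 genes were called, where 1.47% to 7.5% of all genes were. In these 8 fits the adjusted p of Psmd11 reached at most 0.108 (limma). Its difference was 0.78 in each fit without a control, with an adjusted p of 0.0595 to 0.0678 (limma). With the replicate number as a block over all 9 arrays, 3 genes were called, Psmb2, Psmd11 and Psmd13, with 11.5% of all genes. With that block and the early and late arrays alone, 0 were called, and 0 of all 9697 genes. The other 3 passing probe sets of Psmd11 gave early minus late differences of 0.99, 0.82 and 1.33, and those of early minus control were 0.72, 0.43 and 1.01. Fitted over all passing probe sets, these 3 fell short in early against late samples (limma, adjusted p = 0.120, 0.0758 and 0.0751). The probe set used passed there (limma, adjusted p = 0.0399). The second probe set of Psmd13 gave 0.77 for early minus late.

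Within groups the subunit genes varied together from sample to sample. The sample numbered 1 was the highest of its group in all 3 groups for 17 of the 31 genes (54.8%), against 12.3% of all genes tested. These were Psma4, Psma7, Psmb1 to Psmb6, Psmc1, Psmc3, Psmd1, Psmd2, Psmd4, Psmd7, Psmd11, Psmd13 and Psmd14. By the probe sets used, Psmc4 and Psmd6 had the opposite pattern, with sample 1 the lowest in all 3 groups. Their second probe sets did not share it. Sample 1 was the highest there in control and late samples for Psmc4, and in control and early samples for Psmd6. The member median of the value minus the control mean was 0.11, -0.04 and -0.06 in the control samples and 0.11, -0.11 and -0.13 in the late samples, so in each of these groups the sample numbered 1 was the highest.

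After the group means were removed, the median Pearson r over the 465 pairs of subunit genes was 0.48, against 0.01 over all pairs of genes tested. Of the pairs, 48.8% had an r above 0.5 (18.7% over all genes) and 9.03% an r below -0.5 (17.6%). The points are 9 arrays that share each array's processing, and the values are a description. The median was 0.59 among pairs of the 19S regulator, 0.26 within the 20S core and 0.45 between core and regulator. Psmd13, Psma7 and Psma4 tracked the other subunit genes best, with median r of 0.85, 0.84 and 0.80. By the probe sets used, Psmd6, Psma3 and Psmc4 ran against them, at -0.70, -0.42 and -0.37. Psma5, Psma1, Psmc6 and Psma6 followed neither course, at -0.08, 0.02, 0.10 and 0.11. The second probe set of Psma5 had the sample numbered 1 highest in every group, as most subunit genes had.

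**Figure D4:**
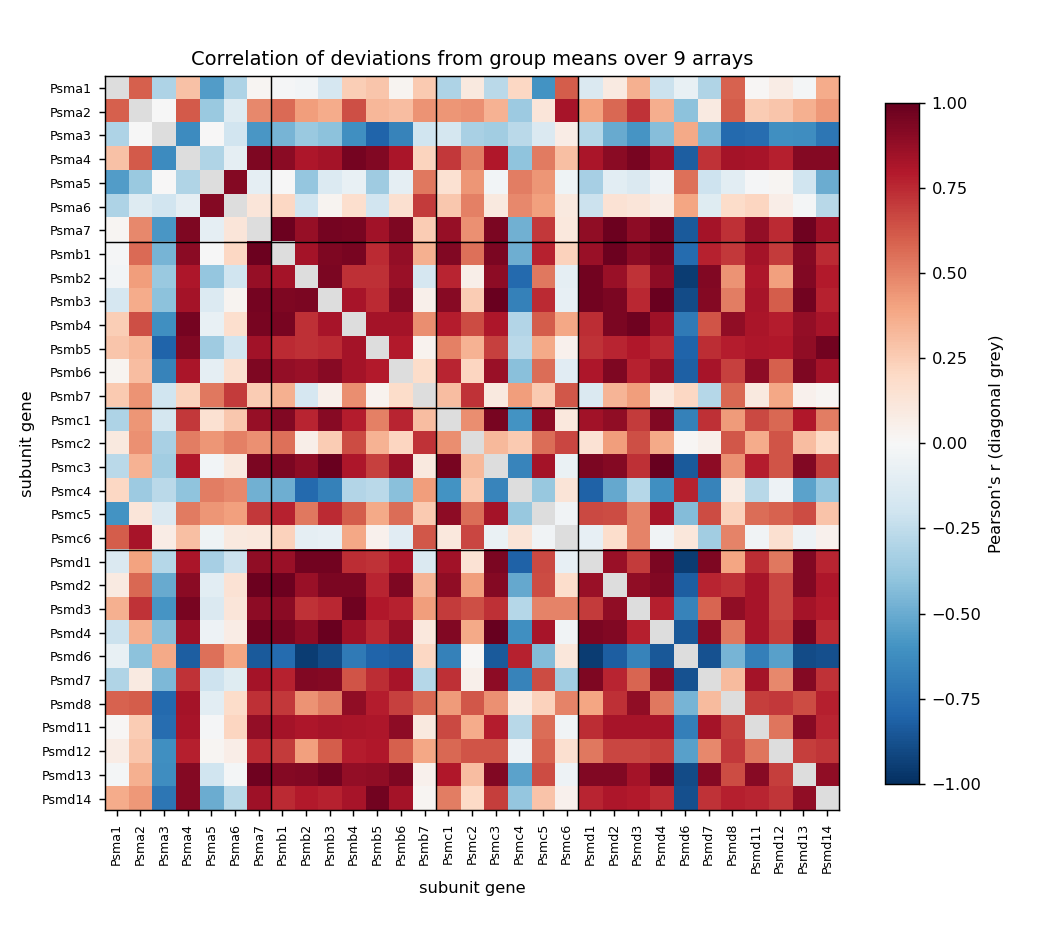
Pearson r between pairs of the 31 subunit genes, computed over 9 arrays from deviations from the group means, with genes on both axes ordered by subcomplex (lines). Most pairs are red (median r 0.48), and the rows of Psma3, Psmc4 and Psmd6 are mostly blue.

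In the early group, macrophage and slow fibre medians fell from replicate 1 to 3, as the subunit median did. The slow fibre markers kept this order in the late group and not in controls. Macrophage markers were highest in sample 1 in controls, as the subunit genes were, and not in the late group. The median of 12 of 13 macrophage markers, as value minus control mean, was 0.23, -0.16 and -0.11 in controls. It was 0.65, 0.38 and -0.25 in the early samples and -0.49, 0.12 and near zero in the late ones. Early replicate 3 was again the lowest early sample, whereas in the late group the sample numbered 1 was lowest for macrophage markers and highest for the subunit genes. The log2 summed macrophage level was 12.9 to 13.2 in controls, 12.7 to 14.1 in early and 12.6 to 13.1 in late samples, and Itgam was below the filter. The 10 slow fibre markers had medians of 2.77, 0.27 and -2.59 in the early, -0.08, -1.03 and 1.19 in the control and 3.79, 3.26 and -0.87 in the late samples, and summed levels of 12.8 to 14.1 in controls, 12.5 to 15.5 in early and 13.1 to 16.2 in late samples. The 5 of 8 adipocyte markers measured had a summed level of 14.6 to 15.2 in controls, 14.1 to 14.4 in early and 14.0 to 15.0 in late samples. The 8 endothelial markers summed to 11.05 to 11.41 in controls, 10.76 to 11.05 in early and 11.30 to 11.57 in late samples, so the early samples lay at or below the lowest control. The 7 fibroblast markers summed to 16.3 to 16.6 in controls, 16.1 to 16.5 in early and 15.7 to 16.1 in late samples, so the late samples were lowest. Of the 10 fast fibre markers, 10, 8 and 0 lay below all controls in early replicates 1, 2 and 3, where their medians were -0.28, -0.13 and 0.01. Of 9697 genes tested, 4060, 3517 and 3370 did so. In late replicates 1, 2 and 3, 1, 7 and 5 of the 10 markers lay below all controls, with medians of 0.04, -0.08 and -0.06. Of all genes, 3564, 3231 and 2999 did so there. Of 10 genes listed for lymphocytes, only Ptprc passed the filter, and it is not specific to lymphocytes. It read 7.33, 6.38 and 6.37 in controls, 7.85, 8.29 and 6.68 in early and 8.09, 7.87 and 7.62 in late samples. The part of these cell types in the proteasome values was not tested. The 3′ minus 5′ difference of control probe sets, a sign of RNA quality, was also highest in the sample numbered 1 of every group. For Actb it was 0.03, 0.03 and 0.01 in control, 0.03, -0.06 and -0.02 in early and 0.07, 0.04 and -0.01 in late samples. For Gapdh it was -0.05, -0.16 and -0.13 in control, -0.08, -0.16 and -0.18 in early and 0.02, -0.11 and -0.11 in late samples. The part of this difference in the proteasome values was not tested.

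**Figure D5:**
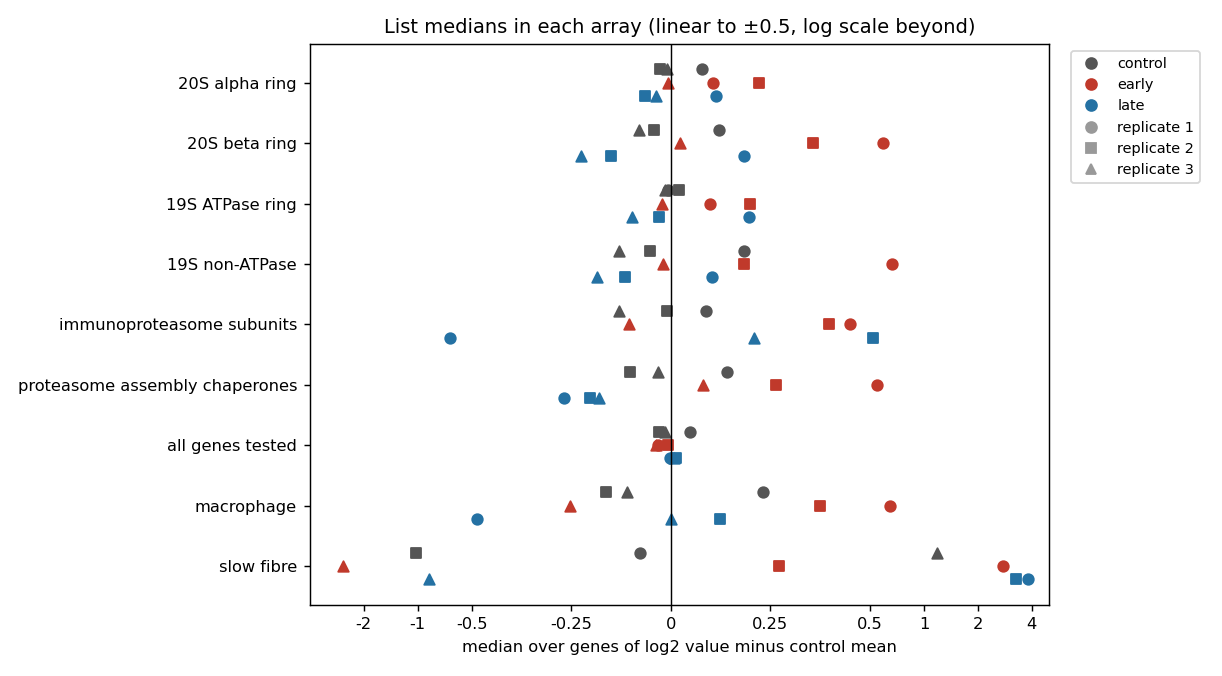
Median over each gene list (rows) of the log2 value minus the control mean in every array, by group (colour) and replicate (symbol); the axis is linear to 0.5 either side of zero and logarithmic beyond. Early replicate 3 sits left of the other early samples for the 4 subcomplexes, the macrophage and the slow fibre lists, and all genes tested stay near zero.

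Genes that act around the proteasome were read from lists by role. The inducible subunits Psmb8, Psmb9 and Psmb10, which replace the catalytic beta subunits in the immunoproteasome, had early differences of 0.26, 0.13 and 0.46, and 0 of 3 passed in any comparison. Psmb10 read 8.23, 7.89 and 7.86 in controls, 9.06, 8.42 and 7.89 in early and 7.33, 7.73 and 7.76 in late samples. Its early samples lay above all late samples, at 0.85 ± 0.28 (limma, adjusted p = 0.0762). Of the activators and the inhibitor, 4 of 5 were measured and 0 passed. The inhibitor gene Psmf1 had an early difference of 0.55, the activator gene Psme1 one of -0.33 and Psme3 one of 0.35. The only probe set of Psme2 names several genes.

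Of 9 assembly chaperone genes, 7 were measured, with medians of 0.25 in early and -0.24 in late samples against controls and 0.50 in early against late samples. Psmg3, a core assembly chaperone, was higher in early than in late samples by 0.68 ± 0.16 (limma, adjusted p = 0.0328), the 1 call in this list of 7, where 11.5% of all genes were called, and 0 passed against controls. Psmd5 and Psmd10, chaperones of the regulator, had early minus control differences of 0.68 and 0.34, and Psmg3 one of 0.33. Of 6 receptors and deubiquitinases bound to the proteasome, 5 were measured. Ecpas, which clamps the core to the regulator, was lower in early than in late samples, by -1.17 ± 0.21 (limma, adjusted p = 0.0196), 1 call of 5 where 11.5% of all genes were called, and 0 passed against controls. Ecpas read 10.42, 9.70 and 9.91 in controls, 9.72, 9.64 and 9.99 in early and 11.20, 10.92 and 10.75 in late samples, with the late samples above all others. The early minus control differences of Usp14, Uchl5 and Ecpas were 0.27, -0.07 and -0.23.

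Of ubiquitin and its activating enzymes, only Uba6 of 6 was measured (0.37 in early against control samples, not past the test). Among shuttle factors and the p97 unfoldase, 11 of 12 were measured and 0 passed against controls. Between early and late samples, where 5.31% of all genes were higher and 6.23% lower, 1 was higher, the p97 cofactor Nsfl1c at 0.64 (limma, adjusted p = 0.0466), and 2 were lower, the shuttle factor Ubqln4 at -0.86 (limma, adjusted p = 0.0328) and Zfand5 at -0.60 (limma, adjusted p = 0.0449). Against controls Nploc4, Nsfl1c and Ubqln4 differed by 0.68, 0.37 and -0.41 in early samples. Among 6 of 7 regulators of proteasome genes, 0 passed against controls. Nfe2l1, the transcription factor that restores subunit transcription when the proteasome is inhibited, read 9.66, 9.37 and 9.41 in controls, 10.10, 10.02 and 9.20 in early and 10.02, 9.89 and 9.66 in late samples. The groups overlapped, and early replicate 3 was the lowest of the 9 samples. Nfe2l2 at -0.89 (limma, adjusted p = 0.0463) and Nfyb at -1.18 (limma, adjusted p = 0.0448) were lower in early than in late samples, 2 calls of 6 where 6.23% of all genes were lower. Early minus control was -0.60 for Nfyb, -0.21 for Nfyc and -0.22 for Ngly1.

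Of 18 ubiquitin ligases and conjugating enzymes studied in muscle, 15 were measured and 1 passed in early against control samples, where 1.19% of all genes did, and 0 in late against control samples. Fbxo32 (atrogin-1), a ligase of muscle atrophy, read 9.57, 9.82 and 9.84 in controls, 11.79, 12.22 and 10.88 in early and 10.89, 10.42 and 11.41 in late samples. Every early sample was above every control, and the early mean was higher by 1.88 ± 0.35 (limma, adjusted p = 0.0446). Trim63 (MuRF1) differed by 0.69 and the conjugating enzyme Ube2d1 by -0.81 in early against control samples, both short of the threshold. Between early and late samples the chaperone-linked ligase Stub1 was higher at 0.72 (limma, adjusted p = 0.0448) and Fbxo31 lower at -1.45 (limma, adjusted p = 0.0492), 2 calls of 15 where 11.5% of all genes were called. In fits that left out 1 sample, Ecpas passed in 5 of 9, and Fbxo32, Psmg3, Nsfl1c, Ubqln4, Zfand5, Nfyb, Stub1 and Fbxo31 passed in 1 of 9, the fit without early replicate 3. Nfe2l2 passed only without late replicate 3. The highest adjusted p in these fits was 0.170, for Fbxo32 without control replicate 2.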

How the data were processed

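Quadriceps RNA of 9 samples was measured on Affymetrix arrays, 1 array a sample, after oligo(dT) priming and biotin labelling, per the labels' protocols. The authors deposited log2 values, summarised with GCRMA according to the submitters' processing notes. The version and options of GCRMA were not given in the sources used here. GCRMA corrects background by probe base composition and brings the arrays to one distribution, so a shift shared by all genes would not be seen. Of 45101 probe sets, 34958 name 1 gene, 932 several and 9211 none; those with several or none were not used for genes. The platform annotation can be old.

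Probe sets above a log2 value of 5 in at least 3 arrays were kept, and the brightest per gene was used (9697 genes). Groups were compared with limma 3.58.1 in R 4.3.3 (lmFit and eBayes over all 3 groups), with Benjamini-Hochberg adjustment over all genes tested and a threshold of 0.05. The steps were tested on simulated data. Precision is limited by 3 arrays a group; array medians were 3.41 to 3.45.

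The early and late samples were taken as paired by number because same-numbered samples deviated together in all 3 pairs (r over all genes 0.168, 0.201 and 0.160); pairing comes from the data alone, as the labels do not state it, and the p-values and calls come from fits without a block unless a block is named. Against controls, r ran from -0.165 to 0.350. Values in every array are given for the 4 genes with the smallest p in each comparison and for Psmb5, Psmb6 and Psmb7. Array values of Psma3, Psma5, Psma7 and Psmd6 are also given, outside this rule. From other lists, up to 3 genes with the smallest p in early against control samples, any called gene and Nfe2l1 are named. The subunit genes and lists were chosen with earlier results of these data known. Alternatives were other floors and no filter, other probe set rules, other scalings, array weights, limma-trend, a replicate block and fits without each sample.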

Additional observations from a re-analysis of the deposited data

Results flagged for a closer look

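Psmd11 differed between early and late samples by 0.78 on the log2 scale and passed the test, with early samples above and late samples below the control mean. Psmb5, at 0.66, and Psmd13, at 0.91, also had all early samples above and all late samples below the control mean, and did not pass the test of the difference. These 3 genes are 9.68% of the subunit genes, and 9.82% of all genes tested had groups on opposite sides of the control mean.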

How the results depend on the processing

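The median difference of the subunit genes kept its sign under every alternative run for early against control samples (0.13 to 0.26 when 1 sample was left out) and for early against late samples (0.11 to 0.30, the highest, 0.296, without late replicate 1). For late against control samples it ran from -0.12 to 0.05 when 1 sample was left out. In that comparison 0 subunit genes were called under every alternative, where 0.0516% to 10.7% of all genes were, the most with array weights. No named result changed sign while called. The count for early against control samples was 0 and became 13 with array weights, whose estimation did not converge and which called 34.4% of all genes; it ran from 0 to 5 when 1 sample was left out. The count for early against late samples was 1, and it became 13 with array weights (41.9%, against 36.4% of all genes). It became 3 with arrays centred on their medians (9.68%, against 11.5% of all genes). After quantile normalization it was 2 (6.45%, against 11.3% of all genes), and with the replicate block 3 (9.68%, against 11.5% of all genes). It became 0 with no filter, where 3.21% of all genes were called, and with only the 2 groups compared, where 0.392% were. It was also 0 with the mean of all passing probe sets (11.1% of all genes) and without x_at and s_at probe sets (11.8%). With early and late arrays only and the replicate block, an alternative chosen after seeing the data, it was 0, as over all genes. The count ran from 0 to 8 when 1 sample was left out. Psmd11 passed in 8 of 21 alternatives, with differences of 0.64 to 0.99 and adjusted p of 0.00289 to 0.132. Centring the arrays moved the split of all genes called between early and late samples from 515 of 1119 higher to 631 of 1120. Over all genes tested, the count called for early against control samples was 115 and became 56 with no filter, 61 with only the 2 groups compared, 62 with the replicate block, 3335 with array weights and 6 to 1756 when 1 sample was left out. For early against late samples it was 1119 and became 584 with no filter, 38 with only the 2 groups, 0 with those arrays and the block, 3534 with array weights and 143 to 2959 when 1 sample was left out. For late against control samples it was 20 and became 12 without x_at and s_at probe sets or with only the 2 groups, 5 with the block, 1037 with array weights and 5 to 59 when 1 sample was left out. The cause of these shifts was not tested.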
